A study of Gallus gallus with 24 samples.

Results

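The endoplasmic reticulum (ER) folding, secretion and unfolded protein response genes of the chicken liver are described here at 6 ages around hatching. The set names 45 genes, and each was read on the Affymetrix Chicken Genome Array through the probe set that carries its symbol, taking the probe set with the highest mean over all arrays where a gene had several. Of the 45, 40 had a probe set, among 13009 named genes of the array, and MANF, ATF6, DDIT3, TRIB3 and SYVN1 were not analysed. The 40 members fall into 5 roles, with 14 chaperones and folding enzymes, 6 sensors, transcription factors and ATF4 targets of the unfolded protein response (UPR), 6 genes of ER-associated degradation (ERAD), 11 genes of signal recognition, the translocon and signal peptidase (entry genes), and 3 genes of the COPII coat.

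The livers came from male Ross x Ross broilers, a commercial meat-type cross, with 4 birds at each age. The ages were embryonic days 16, 18 and 20 (E16, E18 and E20, in ovo) and posthatch days 1, 3 and 9 (D1, D3 and D9). The D1 chicks had received no feed and the D3 and D9 chicks were fed, so that feeding and age cannot be told apart between D1 and the later ages. The label for developmental stage gives the E16 stage on the E18 and E20 livers as well, and the ages used here are those of the sample titles. Per the study's methods, the chicks kept beyond D1 also received a vaccine for Marek's disease and were housed in a heated brooder, which cannot be told apart from age either. Each liver had 1 array, so there were 24 arrays. Each p-value of the main fit rests on the spread between livers of the same age. This spread was pooled over all ages, not taken from the compared ages alone.

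Proteins bound for the blood or the cell surface enter the ER through the SEC61 channel, are folded by chaperones that include HSPA5 (BiP), and leave in COPII-coated vesicles, while misfolded proteins are retrotranslocated and degraded. When unfolded protein builds up, the sensors ERN1 (IRE1), EIF2AK3 (PERK) and ATF6 start the unfolded protein response, in which spliced XBP1 and ATF6 raise chaperone and ERAD genes and ATF4 raises amino acid and redox genes. The hepatocyte is a professional secretory cell that makes most plasma proteins, and in late incubation and after hatching the avian liver also handles the lipid of the yolk.

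All values are log2 intensities normalised together by RMA, so a difference of 1 is a doubling, and they compare a gene across livers but not one gene with another. Array medians lay between 5.43 and 5.55. No member was near background, which was set at the 25th percentile of all probe sets (4.43). A member was called higher or lower in the later age when the limma p-value, adjusted over all 38439 probe sets by the Benjamini-Hochberg method, was 0.05 or less and the log2 ratio was at least 0.75 in size. The hepatocyte markers (11 of 12 listed genes on the array) averaged between 13.80 and 14.14 on every array. This mean does not measure the share of hepatocytes. ALB reached 15.24, the highest value of any probe set. At D3 against E18, 2 of the 11 had a ratio above 0, and F2 averaged 12.09 against 13.43. Markers of pancreatic acinar cells, another professional secretory cell (8 of 14 listed), averaged between 4.43 and 4.80, with 2 of the 8 near background on every array, and markers of B cells and plasma cells (9 of 12) averaged between 5.32 and 5.73. Markers of blood cells moved with age. The 6 measured erythroid markers of 14 listed averaged between 9.59 and 9.77 at E16, 8.87 and 9.12 at E18, 7.84 and 8.15 at E20, 7.85 and 8.56 at D1, 8.29 and 8.94 at D3, and 8.87 and 9.26 at D9. The 7 measured granulocyte markers of 11 listed averaged between 7.17 and 9.37 on the arrays from E16 to D1, and between 5.94 and 7.48 at D3 and D9. In a whole liver, fewer cells of a type and less RNA per cell cannot be told apart. On 2 arrays a marker went against the label. HINTW, a gene of the female-specific W chromosome, read 12.17 on E18 replicate 2 and at most 6.05 on the other arrays, against the male label, and NPPA, a heart peptide gene, read 8.11 on D9 replicate 1 and at most 5.23 on the others. Both arrays were kept, and the counts of members called in each comparison were also run without them. The counts for markers and for other pathway genes, the ages of the highest and lowest means and the counts of non-overlapping arrays were not.

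Over the 6 ages, 22 of the 40 members changed by the moderated F test together with a range of age means of at least 0.75, against 27.1% of the 13009 named genes. Without the 2 arrays that stood apart, 27 members passed. Of the 22, 14 had their lowest age mean at E18, whereas 29.4% of all genes that passed were lowest at E18. The highest age mean was at E16 for 0 members, at E18 for 1, at E20 for 6, at D1 for 7, at D3 for 6 and at D9 for 2, while the 3525 genes that passed had it at these ages in 15.4%, 13%, 13.1%, 10.1%, 28.2% and 20.2% of cases. XBP1, CHAC1, ERN1, EDEM1, DNAJB9 and DNAJC3 had their highest mean at E20, and HSPA5, HYOU1, CRELD2, DNAJB11, PDIA4, PDIA6 and HERPUD1 at D1. CANX, DERL2, SEC61A1, SEC61G, SEC23B and SEC31A had it at D3, SDF2L1 and EDEM3 at D9, and SEC24D at E18. These ages are those of the probe set shown for each gene. Some rest on near ties. DNAJB11 averaged 8.68 at both D1 and D3, and HSPA5 12.92 at D1, 12.87 at D3 and 12.85 at D9. Both other DNAJB9 probe sets had their highest mean at D3, at 9.03 and 6.34, against 8.80 and 5.72 at E20. No test of the peak age between roles was made.

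**Figure D1:**
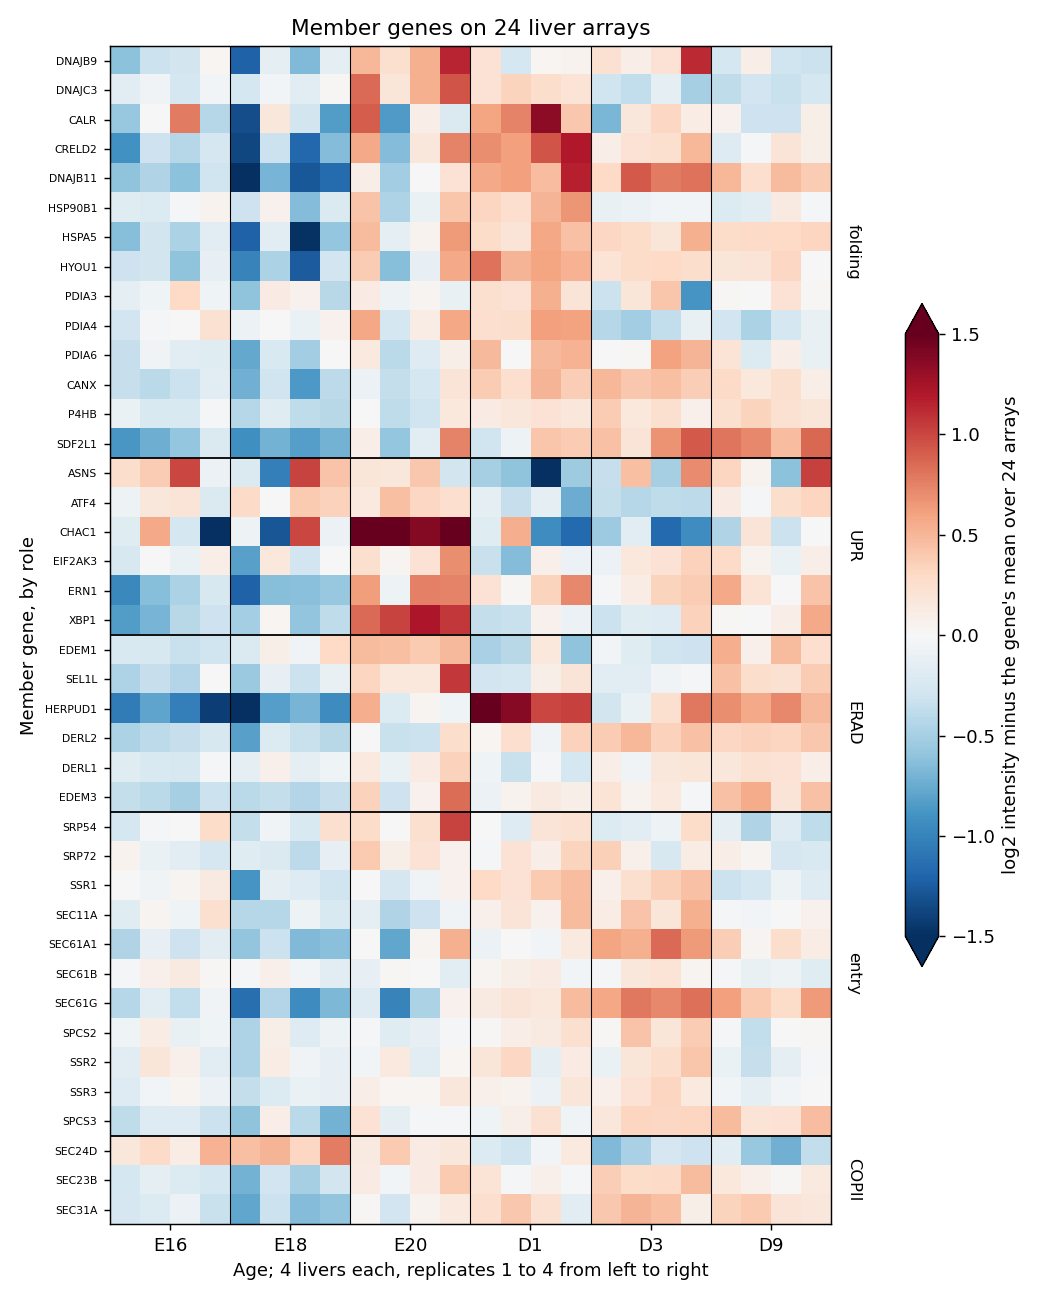
Each row is a member gene and each column 1 of the 24 arrays, 4 per age from E16 to D9; colour gives the log2 intensity minus the gene's mean over the 24 arrays, and horizontal lines separate the 5 roles. E18 columns are mostly blue in the folding rows, CHAC1 and XBP1 are darkest red at E20, HERPUD1 at D1, and SEC61G at D3.

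Between E16 and E18, no member passed the test in either direction, against 0.215% of named genes called higher and 1.37% called lower at E18. The members leaned to lower values at E18, with a median log2 ratio of -0.18, 10 of 40 above 0, and 11 of 40 at an unadjusted limma p of 0.05 or less, of which 10 were lower at E18, where 18.7% of named genes had such a p in either direction. Of the 11 entry genes, 0 had a ratio above 0, and of the 14 folding genes, 1 had. DNAJB11 was farthest from 0, with a log2 ratio to E16 of -0.78 ± 0.21 (SE, adjusted p = 0.0537). It passed with the replicate number, taken as the hybridization day, as a block, at an adjusted p of 0.0365. It also passed without E18 replicate 2, where its ratio was -0.97 with an adjusted p of 0.015.

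Between E18 and E20, 10 members were called higher at E20 and none lower. This set of 10 of 40 stands against 2.40% of named genes higher and 1.83% lower at E20. The median log2 ratio of the members was 0.43, against -0.01 over all named genes, and 38 of 40 members had a ratio above 0. The called genes were HSPA5, DNAJB9, DNAJB11, SDF2L1, HYOU1 and CRELD2 among the chaperones, XBP1, ERN1 and CHAC1 in the UPR group, and HERPUD1 in ERAD. None of the 11 entry genes and none of the 3 COPII genes passed both limits. Over the same step 2 of 6 erythroid, 2 of 5 cholangiocyte and 1 of 8 pancreatic acinar markers were called lower at E20, and 1 of 9 macrophage and 1 of 7 endothelial markers higher. Their part in these results was not tested. When the fit held only the 8 arrays of E18 and E20, 6 of the 10 calls were made, and HSPA5, SDF2L1, HYOU1 and CRELD2 were lost, with adjusted p between 0.0647 and 0.189.

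XBP1, whose mRNA is the splicing target of ERN1 and whose protein raises chaperone and ERAD genes, had its highest values at E20. In embryos XBP1 read 10.50, 10.63, 10.91 and 11.02 at E16, 10.83, 11.36, 10.74 and 10.95 at E18 and 12.18, 12.34, 12.54 and 12.39 at E20, and in hatchlings 10.97, 11.00, 11.40 and 11.24 at D1, 11.01, 11.15, 11.14 and 11.67 at D3 and 11.35, 11.32, 11.43 and 11.90 at D9. All 4 arrays at E20 lay above every array of the other ages. XBP1 at E20 against E18 had a log2 ratio of 1.39 ± 0.16 (SE, adjusted p = 9.62e-06), a 2.63-fold difference. It was lower after hatching, with a log2 ratio to E20 of -1.21 ± 0.16 (SE, adjusted p = 2.5e-05) at D1, a 2.31-fold higher level at E20. The second XBP1 probe set gave ratios of 1.67 and -1.30 over the same steps. Which splice form the probe sets read was not determined here, so the values are of the transcript only.

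CHAC1, which breaks down glutathione and is a target of ATF4 in mammals, had the widest range of age means of any member and was taken up in full after its values were seen. In embryos CHAC1 read 7.74, 8.49, 7.67 and 6.37 at E16, 7.85, 6.64, 8.92 and 7.84 at E18 and 9.66, 10.18, 9.30 and 9.59 at E20, and in hatchlings 7.75, 8.47, 7.00 and 6.76 at D1, 7.38, 7.77, 6.76 and 7.00 at D3 and 7.47, 8.12, 7.60 and 7.92 at D9. The E20 values all lay above those of every other age, while E16, E18 and D1 each spread over more than 1.5 on the log2 scale. CHAC1 at E20 against E18 had a log2 ratio of 1.87 ± 0.43 (SE, adjusted p = 0.0082). The step to D1 had a log2 ratio to E20 of -2.19 ± 0.43 (SE, adjusted p = 0.0016), a 4.57-fold higher level at E20. It was also the only member called lower in hatchlings than in embryos, as given further on.

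ATF4, the transcription factor translated when PERK or a related kinase is active, was not called between any neighbouring ages at the RNA level. In embryos ATF4 read 12.53, 12.77, 12.79 and 12.38 at E16, 12.89, 12.60, 13.00 and 12.95 at E18 and 12.74, 13.05, 12.91 and 12.85 at E20, and in hatchlings 12.45, 12.25, 12.45 and 11.85 at D1, 12.24, 12.17, 12.22 and 12.20 at D3 and 12.72, 12.57, 12.86 and 12.92 at D9. Values were high at E18, E20 and D9 and low at D1 and D3, where 8 arrays lay between 11.85 and 12.45. At E20 it had a log2 ratio to E18 of 0.03 ± 0.12 (SE, adjusted p = 0.934), and the groups overlapped. At D1 it had a log2 ratio to E20 of -0.64 ± 0.12 (SE, adjusted p = 0.00137), with no overlap of the arrays but a ratio short of 0.75. At D9 it had a log2 ratio to D3 of 0.56 ± 0.12 (SE, adjusted p = 0.00889), also short of the limit. At D3 against E18 ATF4 was not called in the probe set shown, but its second bright probe set was called lower at D3, with a ratio of -0.83. The probe set shown was called there too when the arrays were scaled by cyclic loess (-0.79). ASNS, asparagine synthetase and another ATF4 target, was called in no comparison, with age means between 6.90 at D1 and 8.12 at E16.

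ERN1, the sensor kinase and RNase that splices XBP1, had higher values from E20 on. In embryos ERN1 read 7.92, 8.24, 8.41 and 8.64 at E16, 7.67, 8.24, 8.25 and 8.31 at E18 and 9.50, 8.80, 9.63 and 9.63 at E20, and in hatchlings 9.09, 8.89, 9.21 and 9.60 at D1, 8.86, 8.99, 9.21 and 9.26 at D3 and 9.44, 9.08, 8.89 and 9.31 at D9. The E20 arrays all lay above the E16 and E18 arrays. ERN1 at E20 against E18 had a log2 ratio of 1.28 ± 0.20 (SE, adjusted p = 0.000199). Its D3 arrays had a log2 ratio to E18 of 0.96 ± 0.20 (SE, adjusted p = 0.000614). The other 3 ERN1 probe sets gave smaller ratios, down to 0.03 at E20 for one that averaged 3.54 and so lay below the background level. EIF2AK3, which encodes PERK, was not called, with its highest age mean of 7.62 at E20 and its lowest of 7.07 at D1.

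**Figure D2:**
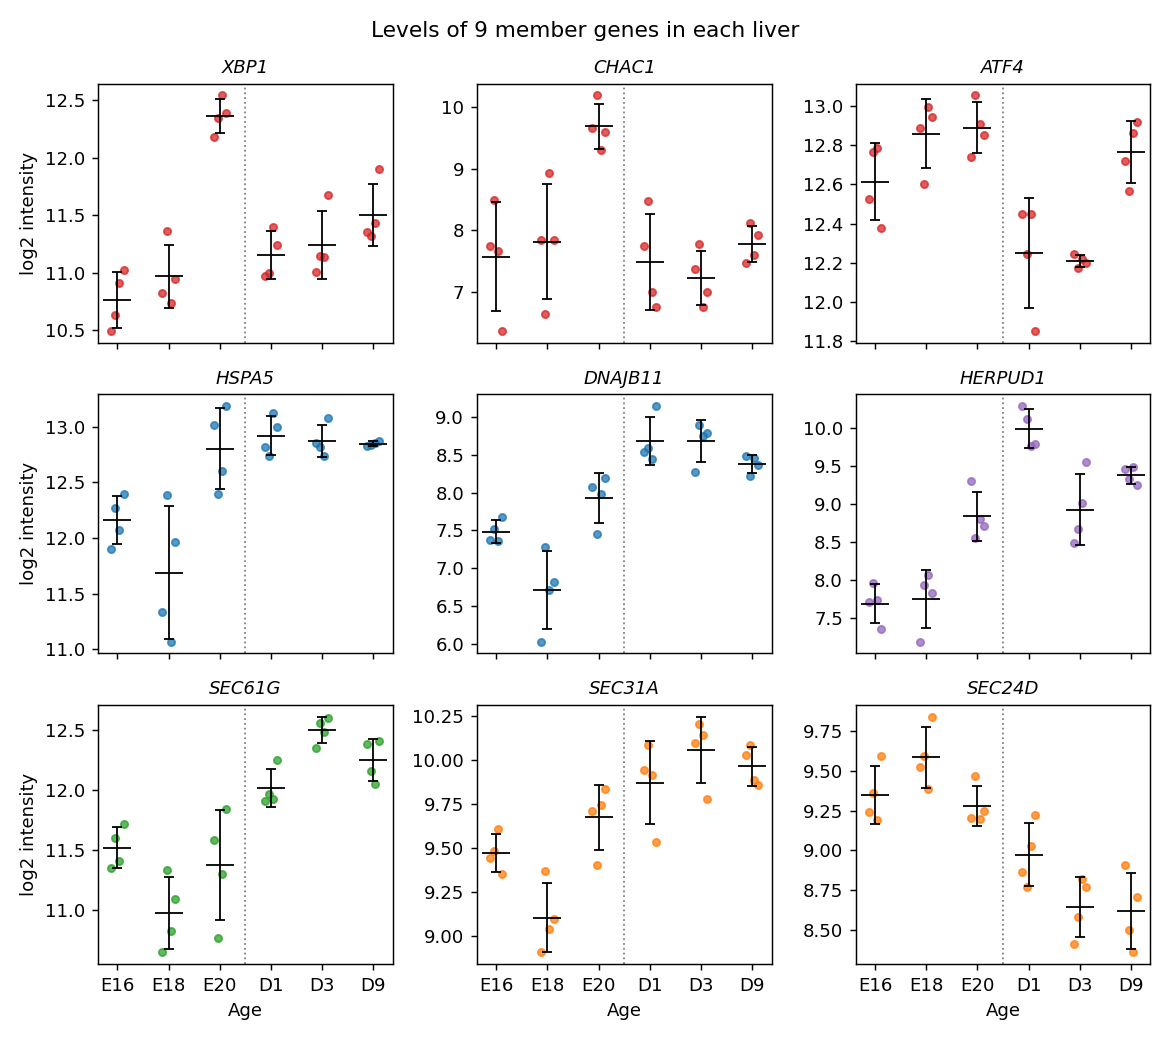
Log2 intensity of 9 member genes in each liver (dots) at the 6 ages, with the mean and SD of the 4 livers (bars); the dotted line marks hatching and colours mark roles. XBP1 and CHAC1 have their 4 E20 dots above all others, HSPA5 and DNAJB11 stay high after E20, HERPUD1 is highest at D1, SEC61G and SEC31A at D3, and SEC24D is lowest at D3 and D9.

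HSPA5 (BiP), the HSP70 chaperone of the ER lumen that also binds the UPR sensors, was low at E18 and high from E20 to D9. In embryos HSPA5 read 11.90, 12.27, 12.07 and 12.39 at E16, 11.33, 12.39, 11.07 and 11.96 at E18 and 13.02, 12.39, 12.60 and 13.18 at E20, and in hatchlings 12.82, 12.74, 13.12 and 12.99 at D1, 12.85, 12.82, 12.73 and 13.07 at D3 and 12.83, 12.83, 12.85 and 12.87 at D9. The E18 arrays spread from 11.07 to 12.39, and the highest of them was replicate 2, the array with the HINTW signal, while the 4 D9 arrays lay within 0.05 of each other. HSPA5 at E20 against E18 had a log2 ratio of 1.11 ± 0.21 (SE, adjusted p = 0.00136), a 2.16-fold difference, and without E18 replicate 2 and D9 replicate 1 the ratio was 1.35. Later steps were not called, with a log2 ratio to E20 of 0.12 ± 0.21 (SE, adjusted p = 0.84) at D1 and a log2 ratio to D3 of -0.02 ± 0.21 (SE, adjusted p = 0.984) at D9.

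DNAJB11, a J-domain partner that hands unfolded protein to HSPA5, moved in the same direction and farther. In embryos DNAJB11 read 7.37, 7.52, 7.37 and 7.68 at E16, 6.03, 7.28, 6.71 and 6.82 at E18 and 8.08, 7.45, 7.99 and 8.20 at E20, and in hatchlings 8.54, 8.60, 8.44 and 9.14 at D1, 8.28, 8.90, 8.76 and 8.79 at D3 and 8.48, 8.23, 8.45 and 8.36 at D9. Every hatchling array lay above every embryo array, as was so for 2 of the 40 members and for 1.41% of named genes. DNAJB11 at E20 against E18 had a log2 ratio of 1.22 ± 0.21 (SE, adjusted p = 0.000554). The step to D1 had a log2 ratio to E20 of 0.75 ± 0.21 (SE, adjusted p = 0.0212), a call lost without E20 replicate 2 (0.59, adjusted p = 0.094) and without D1 replicate 4 (0.60, adjusted p = 0.0898). Between D3 and E18 the difference was 3.92-fold, with a log2 ratio to E18 of 1.97 ± 0.21 (SE, adjusted p = 1.64e-07).

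DNAJC3, a second J-domain partner of HSPA5 that in mammals also restrains PERK, had its highest age mean at E20, as XBP1 did. In embryos DNAJC3 read 9.76, 9.88, 9.67 and 9.90 at E16, 9.66, 9.89, 9.78 and 9.95 at E18 and 10.79, 10.11, 10.47 and 10.88 at E20, and in hatchlings 10.15, 10.27, 10.19 and 10.14 at D1, 9.64, 9.57, 9.80 and 9.43 at D3 and 9.55, 9.65, 9.60 and 9.67 at D9. All E20 arrays but replicate 2 lay above every other array. Its E20 arrays had a log2 ratio to E18 of 0.74 ± 0.12 (SE, adjusted p = 0.000312), just under the limit on the ratio. A dimmer probe set of the gene was called higher at E20, with a ratio of 1.31. In the probe set shown, DNAJC3 passed without any 1 of E18 replicates 2 and 4 and E20 replicates 2 and 3 (0.76 to 0.89). Its D3 arrays, which did not overlap those of D1, had a log2 ratio to D1 of -0.58 ± 0.12 (SE, adjusted p = 0.003), also short of the limit on the ratio.

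CANX, the membrane lectin that holds glycoproteins during folding, was higher in hatchlings on most arrays in the probe set shown. It was not called in hatchlings minus embryos. In embryos CANX read 10.62, 10.56, 10.64 and 10.79 at E16, 10.23, 10.66, 10.10 and 10.57 at E18 and 10.87, 10.60, 10.69 and 11.15 at E20, and in hatchlings 11.34, 11.21, 11.47 and 11.32 at D1, 11.46, 11.36, 11.41 and 11.32 at D3 and 11.25, 11.12, 11.20 and 11.06 at D9. At D1, D3 and D9 all values were at or above 11.06, and among embryos only E20 replicate 4, at 11.15, reached that level. The D3 and E18 arrays did not overlap, with a log2 ratio to E18 of 1.00 ± 0.11 (SE, adjusted p = 6.01e-07). CALR, its soluble counterpart, was called in no comparison and had an SD within ages as large as 0.73, at E20.

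Among the remaining chaperones, HYOU1, the nucleotide exchange factor of HSPA5, averaged 10.24 ± 0.54 at E20 and 9.44 ± 0.45 at E18 (SD, n = 4 each). HYOU1 at E20 against E18 had a log2 ratio of 0.80 ± 0.20 (SE, adjusted p = 0.0167). Its E20 and E18 arrays overlapped, and the call was lost without any 1 of E18 replicates 1 and 3 and E20 replicates 1 and 4, with ratios of 0.63 to 0.72. The second HYOU1 probe set was called higher at D1 against E20 (0.91), where the probe set shown was not called. CRELD2, an ER protein induced by ER stress in mammals, averaged 9.97 ± 0.62 at E20 and 8.89 ± 0.48 at E18, also with overlap, and had a log2 ratio to E18 of 1.09 ± 0.24 (SE, adjusted p = 0.00638). A second CRELD2 probe set, which averaged 4.24 and lay below the background level, gave a ratio of 0.26. DNAJB9, a further J-domain partner, had a log2 ratio to E18 of 1.15 ± 0.23 (SE, adjusted p = 0.00324), and SDF2L1, which works with DNAJB11, had a log2 ratio to E18 of 0.82 ± 0.22 (SE, adjusted p = 0.0215). The SDF2L1 call was lost without any 1 of E18 replicate 1 and E20 replicates 1 and 4. HSP90B1 (GRP94) did not pass in the probe set shown, with a log2 ratio to E18 of 0.35 ± 0.16 (SE, adjusted p = 0.228), but its dimmer probe set had a ratio of 1.26. The disulfide isomerases PDIA3, PDIA4, PDIA6 and P4HB had ratios between 0.20 and 0.29 at E20 and none was called.

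Between E20 and D1, 2 members were called higher at D1 and 3 lower, against 3.44% of named genes higher and 2.28% lower at D1. The roles leaned in different directions. The folding genes had a median log2 ratio of 0.34, with 12 of 14 above 0, and the UPR genes had a median of -0.80, with 0 of 6 above 0. DNAJB11 and HERPUD1 were higher at D1, and XBP1, CHAC1 and EDEM1 were lower. Without D1 replicate 4 the count was 3, since DNAJB11 and EDEM1 no longer passed. Among the markers, 1 of 9 macrophage and 1 of 7 endothelial genes were called lower at D1 and 1 of 9 B cell and plasma cell genes higher, and their part was not tested.

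HERPUD1, a membrane protein of the ER that organises the degradation complex, had the widest range of age means after CHAC1. In embryos HERPUD1 read 7.70, 7.96, 7.73 and 7.35 at E16, 7.18, 7.93, 8.06 and 7.82 at E18 and 9.30, 8.55, 8.79 and 8.70 at E20, and in hatchlings 10.28, 10.12, 9.76 and 9.78 at D1, 8.48, 8.66, 9.00 and 9.55 at D3 and 9.46, 9.32, 9.48 and 9.24 at D9. The E20 arrays all lay above the E16 and E18 arrays, and the D1 arrays all lay above those of every other age. HERPUD1 at E20 against E18 had a log2 ratio of 1.09 ± 0.21 (SE, adjusted p = 0.00206). It had a log2 ratio to E20 of 1.15 ± 0.21 (SE, adjusted p = 0.000849) at D1, a 2.22-fold difference, and a log2 ratio to D1 of -1.06 ± 0.21 (SE, adjusted p = 0.0022) at D3. All 3 probe sets of the gene had ratios of the same sign in these steps, between 1.08 and 1.34 at D1.

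EDEM1, a mannosidase-like protein that marks misfolded glycoproteins for degradation, had its highest age mean at E20 and was lower at D1, as XBP1 was. In embryos EDEM1 read 10.82, 10.82, 10.72 and 10.76 at E16, 10.83, 11.14, 11.00 and 11.35 at E18 and 11.52, 11.51, 11.45 and 11.54 at E20, and in hatchlings 10.56, 10.64, 11.21 and 10.45 at D1, 11.01, 10.88, 10.75 and 10.74 at D3 and 11.60, 11.13, 11.53 and 11.31 at D9. The 4 E20 arrays lay within 0.10 of each other, and the D1 arrays lay below them all. EDEM1 at D1 against E20 had a log2 ratio of -0.79 ± 0.13 (SE, adjusted p = 0.000342). The call was lost without D1 replicate 1 (-0.74) and without D1 replicate 4 (-0.70). Its level was again between 11.13 and 11.60 at D9. The related EDEM3 averaged 9.71 ± 0.15 at D9 and 8.90 ± 0.08 at E16, with a log2 ratio to E16 of 0.81 ± 0.15 (SE, adjusted p = 0.000279), but the lowest ratio among its 3 probe sets was -0.16.

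DERL2, a rhomboid-like protein of the retrotranslocation site, was higher after hatching. In embryos DERL2 read 8.75, 8.83, 8.87 and 8.99 at E16, 8.41, 9.02, 8.89 and 8.80 at E18 and 9.21, 8.88, 8.91 and 9.48 at E20, and in hatchlings 9.25, 9.48, 9.17 and 9.57 at D1, 9.61, 9.72, 9.57 and 9.67 at D3 and 9.53, 9.57, 9.54 and 9.63 at D9. The D3 and D9 arrays all lay above every embryo array. It had a log2 ratio to E18 of 0.86 ± 0.13 (SE, adjusted p = 1.48e-05) at D3, a call lost without E18 replicate 1 (0.73), and its second, dim probe set had a ratio of -0.14. DERL1 was called in no comparison, with age means between 10.86 and 11.21. SEL1L, the partner of the ubiquitin ligase SYVN1, had at E20 a log2 ratio to E18 of 0.70 ± 0.16 (SE, adjusted p = 0.0081), under the limit on the ratio. Its E20 mean of 9.67 was its highest, but the 4 arrays read 9.56, 9.40, 9.41 and 10.30, against 9.48 to 9.69 at D9. Another SEL1L probe set was highest at D9 (8.41, against 8.22 at E20), and a dimmer one was at 6.35 at both ages.

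**Figure D3:**
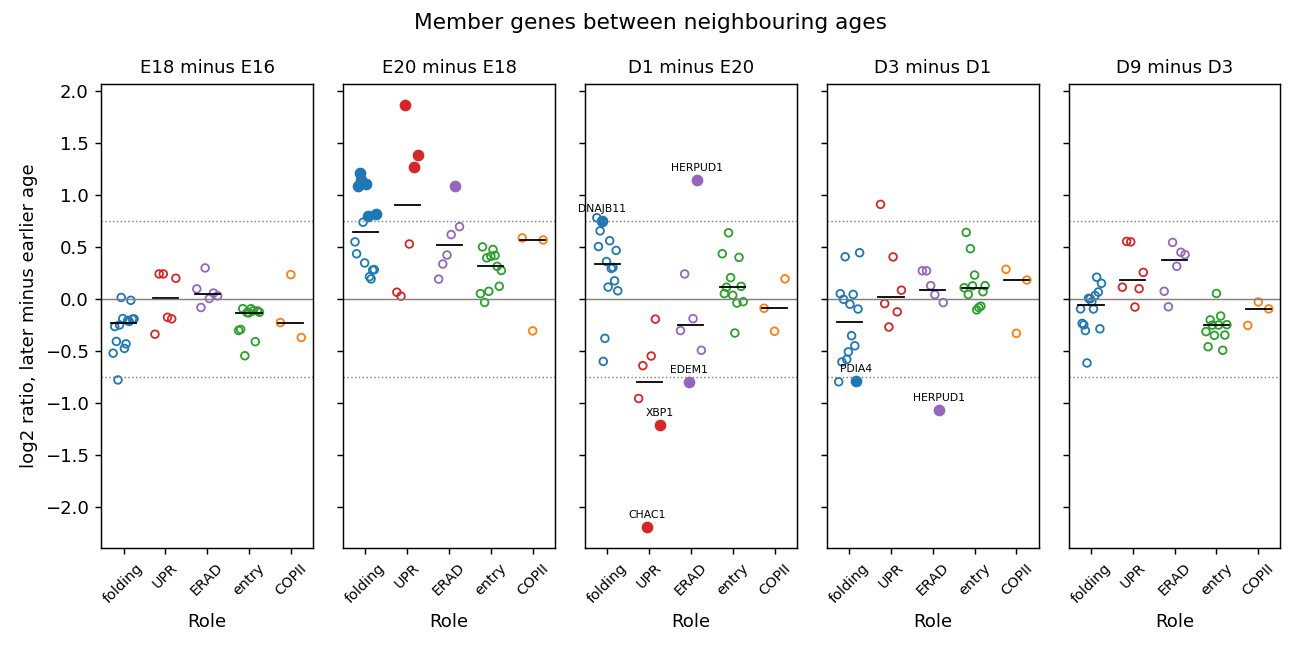
Log2 ratio, later minus earlier age, of each of the 40 members in the 5 steps between neighbouring ages, by role; filled points were called, open points were not, bars are medians and dotted lines mark a ratio of 0.75 in either direction. The 10 filled points of E20 minus E18 lie in the folding, UPR and ERAD groups, and the 6 UPR points of D1 minus E20 all lie below 0.

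Between D1 and D3, 2 members were called lower at D3 and none higher, against 2.63% of named genes higher and 1.88% lower at D3. They were HERPUD1, above, and PDIA4, a disulfide isomerase of the HSPA5 complex. PDIA4 read 11.60, 11.49, 11.65 and 11.91 at D3, against 12.27, 12.28, 12.63 and 12.62 at D1. Its arrays did not overlap, with a log2 ratio to D1 of -0.79 ± 0.15 (SE, adjusted p = 0.0018), a call lost without D1 replicate 3, D1 replicate 4 or D3 replicate 2, each with a ratio of -0.73. The PDIA4 call was also lost when its probe sets were averaged (-0.64), as its second probe set averaged 12.09 at D1 and 11.60 at D3. HSP90B1 was not called in the probe set shown, but was called lower at D3 in its dimmer probe set (-1.51) and in the average of its probe sets (-1.01). Over this step 3 of the 7 granulocyte markers were lower and 2 of the 6 erythroid and 1 of the 9 macrophage markers higher at D3, and their part in the result was not tested. Between D3 and D9, no member was called in either direction by limma, against 0.969% of named genes higher and 1.84% lower at D9. At an unadjusted p of 0.05 or less, 5 members were higher and 9 lower at D9, where 20.7% of named genes had such a p in either direction, and 10 of the 11 entry genes had a ratio below 0, with a median of -0.25.

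Of the comparisons made, D3 against E18 had the most members called, and it starts from the age at which most of the changed members were lowest. In it 14 members were higher at D3 and 1 was lower, against 11.0% of named genes higher and 6.03% lower at D3. The median log2 ratio of the members was 0.51, against -0.03 over all named genes. By role, 7 of 14 folding genes, 1 of 6 UPR genes, 2 of 6 ERAD genes, 2 of 11 entry genes and 2 of 3 COPII genes were higher, and the third COPII gene was the one that was lower. Over the same comparison 6 of the 7 granulocyte markers, 6 of the 10 fibroblast and stellate markers (median log2 ratio -0.82), 2 of the 5 cholangiocyte markers and 1 marker each of the erythroid, endothelial, acinar and hepatocyte lists were lower at D3. Higher at D3 were 1 cholangiocyte and 1 macrophage marker, and the part of any of these was not tested. Without the 2 arrays that stood apart, 16 members were called, and without E18 replicate 1 there were 12. P4HB was called higher at D3 in its second probe set only (0.82). PDIA6 was called higher without any 1 of E18 replicate 4 and D3 replicates 1 and 2 (0.75 to 0.79).

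SEC61G, the gamma subunit of the protein-conducting channel, had the widest ratio here after DNAJB11. In embryos SEC61G read 11.35, 11.60, 11.41 and 11.72 at E16, 10.65, 11.34, 10.83 and 11.10 at E18 and 11.58, 10.77, 11.30 and 11.84 at E20, and in hatchlings 11.91, 11.97, 11.93 and 12.25 at D1, 12.36, 12.56, 12.49 and 12.60 at D3 and 12.39, 12.16, 12.05 and 12.41 at D9. All hatchling arrays lay above all embryo arrays, the closest pair being D1 replicate 1 at 11.91 and E20 replicate 4 at 11.84. SEC61G at D3 against E18 had a log2 ratio of 1.53 ± 0.17 (SE, adjusted p = 4.53e-07), a 2.88-fold difference.

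SEC61A1, the alpha subunit that forms the channel itself, was highest at D3. In embryos SEC61A1 read 10.84, 11.17, 10.99 and 11.14 at E16, 10.70, 10.97, 10.64 and 10.67 at E18 and 11.30, 10.52, 11.34 and 11.83 at E20, and in hatchlings 11.21, 11.30, 11.26 and 11.45 at D1, 11.89, 11.83, 12.14 and 11.93 at D3 and 11.66, 11.34, 11.56 and 11.41 at D9. The highest array outside D3 was E20 replicate 4, at 11.83, level with the lowest D3 array, and E20 spread from 10.52 to 11.83. SEC61A1 at D3 against E18 had a log2 ratio of 1.20 ± 0.17 (SE, adjusted p = 9.81e-06). One of its 3 probe sets had a ratio of 0.08. SEC61B, the beta subunit, was flat in the probe set shown, with age means between 13.58 and 13.78, while another of its 6 probe sets averaged 12.96 at D3 and 11.64 at E18, a ratio of 1.32.

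SPCS3, a subunit of signal peptidase, which removes the signal sequence from the entering chain, was higher after E18 on most arrays. In embryos SPCS3 read 11.09, 11.28, 11.28 and 11.16 at E16, 10.87, 11.57, 11.07 and 10.77 at E18 and 11.69, 11.35, 11.45 and 11.45 at E20, and in hatchlings 11.42, 11.56, 11.70 and 11.41 at D1, 11.65, 11.80, 11.79 and 11.80 at D3 and 11.95, 11.68, 11.69 and 11.94 at D9. The D3 arrays lay above those at E18, with a log2 ratio to E18 of 0.69 ± 0.13 (SE, adjusted p = 0.000234), under the limit on the ratio, and without E18 replicate 2 the ratio was 0.85 and passed. The remaining entry genes were not called. SSR1, SSR2 and SSR3 of the translocon-associated complex, SPCS2 and SEC11A of signal peptidase had their highest means at D1 or D3, and SRP54 and SRP72 of the signal recognition particle had theirs at E20.

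The 3 COPII genes did not move together. SEC31A and SEC23B, which form the outer and inner coat, were higher at D3. In embryos SEC31A read 9.44, 9.48, 9.61 and 9.35 at E16, 8.90, 9.37, 9.04 and 9.10 at E18 and 9.71, 9.40, 9.74 and 9.83 at E20, and in hatchlings 9.94, 10.09, 9.92 and 9.53 at D1, 10.09, 10.20, 10.14 and 9.78 at D3 and 10.03, 10.08, 9.88 and 9.86 at D9. In embryos SEC23B read 9.09, 9.22, 9.15 and 9.09 at E16, 8.65, 9.06, 8.86 and 9.08 at E18 and 9.48, 9.31, 9.48 and 9.74 at E20, and in hatchlings 9.56, 9.34, 9.44 and 9.33 at D1, 9.72, 9.63, 9.65 and 9.83 at D3 and 9.51, 9.43, 9.37 and 9.50 at D9. Neither gene's D3 arrays overlapped its E18 arrays. SEC31A at D3 against E18 had a log2 ratio of 0.95 ± 0.12 (SE, adjusted p = 2.71e-06). SEC23B at D3 against E18 had a log2 ratio of 0.79 ± 0.09 (SE, adjusted p = 9.52e-07). The SEC23B call was lost without E18 replicate 1 (0.70), and its second probe set had a ratio of 0.17.

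SEC24D, one of the cargo-binding subunits of the inner coat, ran the other way. In embryos SEC24D read 9.24, 9.36, 9.19 and 9.60 at E16, 9.52, 9.59, 9.38 and 9.84 at E18 and 9.21, 9.47, 9.20 and 9.25 at E20, and in hatchlings 8.87, 8.77, 9.03 and 9.22 at D1, 8.41, 8.58, 8.82 and 8.77 at D3 and 8.91, 8.50, 8.36 and 8.71 at D9. All D3 and D9 arrays lay below all embryo arrays. SEC24D at D3 against E18 had a log2 ratio of -0.94 ± 0.13 (SE, adjusted p = 7.44e-06). All 5 of its probe sets had negative ratios, the smallest in size being -0.39. The mean of its probe sets had a ratio of -0.66, short of the limit.

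In hatchlings against embryos, which sets the mean of D1, D3 and D9 against the mean of E16, E18 and E20, 5 members were higher and 1 lower, against 5.42% of named genes higher and 4.11% lower in hatchlings. The median log2 ratio was 0.24 and 30 of 40 members had a ratio above 0. The 5 higher were DNAJB11 (1.21 ± 0.12 SE, adjusted p = 3.52e-08), SDF2L1 (0.91 ± 0.12 SE, adjusted p = 3.86e-06), CRELD2 (0.76 ± 0.14 SE, adjusted p = 0.000146), HERPUD1 (1.34 ± 0.12 SE, adjusted p = 1.07e-08) and SEC61G (0.97 ± 0.10 SE, adjusted p = 6.19e-08). CHAC1 was lower in hatchlings, with a log2 ratio to embryos of -0.86 ± 0.25 (SE, adjusted p = 0.0102), and its arrays overlapped. The embryo mean was raised by E20, at 9.68, as CHAC1 averaged 7.57 at E16 and 7.81 at E18. In hatchlings CHAC1 averaged 7.49 at D1, 7.23 at D3 and 7.78 at D9, near its E16 and E18 levels. Without E18 replicate 3 the CHAC1 ratio was -0.73 and no longer passed. The CRELD2 call was lost without any 1 of E16 replicate 1, E18 replicates 1 and 3, E20 replicate 2, D1 replicate 4, D3 replicate 4 and D9 replicate 3, with ratios between 0.67 and 0.74, and without E18 replicate 3 the count was 4. The arrays of DNAJB11 and SEC61G did not overlap, and those of the other called members did. With a gene's most variable probe set the count was 8, with HYOU1 (1.16) and SEC61B (0.80) added as higher. HYOU1 was also called when its probe sets were averaged (0.93). XBP1 averaged 11.30 in hatchlings and 11.37 in embryos, a ratio of -0.07 that was not called. From E16 to D9, 5 members were higher at D9 and none lower, against 6.28% of named genes higher and 6.48% lower at D9. They were DNAJB11, SDF2L1, ERN1, HERPUD1 and EDEM3, and HERPUD1 had the widest ratio, at 3.22-fold. Without E16 replicate 4 the count was 8, with HSPA5, XBP1 and SEC61G added. The second probe sets of XBP1 and HYOU1 were also called higher at D9, with ratios of 1.05 and 1.00. SEC24D was called lower at D9 without any 1 of E16 replicates 1 and 3 and D9 replicates 1 and 4, with ratios from -0.82 to -0.76. Of the markers, 5 of 7 granulocyte, 3 of 10 fibroblast and stellate, and 1 each of the cholangiocyte, acinar and hepatocyte genes were lower in hatchlings than in embryos, and 1 macrophage and 1 endothelial gene were higher. At D9 against E16, 5 of 9 macrophage markers (median log2 ratio 1.13), 2 of 7 T cell markers and 1 of 7 endothelial markers were higher, and 4 of 7 granulocyte, 3 of 10 fibroblast and stellate, 2 of 6 erythroid and 1 each of the cholangiocyte, acinar and hepatocyte markers were lower. Their part in these results was not tested.

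Arrays of the same age differed from each other in the mean level of the folding genes, most at E18 and E20. With 1 array per liver, differences between livers and between arrays cannot be told apart. Over the 14 folding genes, the mean deviation from each gene's own average was -0.35 on E20 replicate 2 and 0.44 on E20 replicate 4. At E18 it was -0.87 on replicate 1 and -0.21 on replicate 2. The 4 D9 arrays, in contrast, lay between 0.04 and 0.11. The mean of the UPR genes did not follow the same order, and at E20 its 4 arrays lay between 0.63 and 0.71. That mean joins genes that went different ways, since E20 replicate 2 was lowest for ERN1 and EIF2AK3 but highest for CHAC1 and ATF4. With the age means removed, the deviations of HSPA5 over the 24 arrays had a Pearson correlation of 0.86 with those of CRELD2, 0.85 with CANX and 0.80 with HSP90B1, and of -0.61 with CHAC1. For the other UPR genes it was 0.73 with EIF2AK3, 0.53 with XBP1 and 0.48 with ERN1, and -0.44 with ASNS and -0.40 with ATF4. Of the 39 members other than HSPA5, 34 had a correlation above 0 and 21 above 0.5. The shares of all named genes with such correlations were not computed, so these counts cannot be read as particular to the members. The points share the arrays and their normalisation, so these are descriptions and were not tested.

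**Figure D4:**
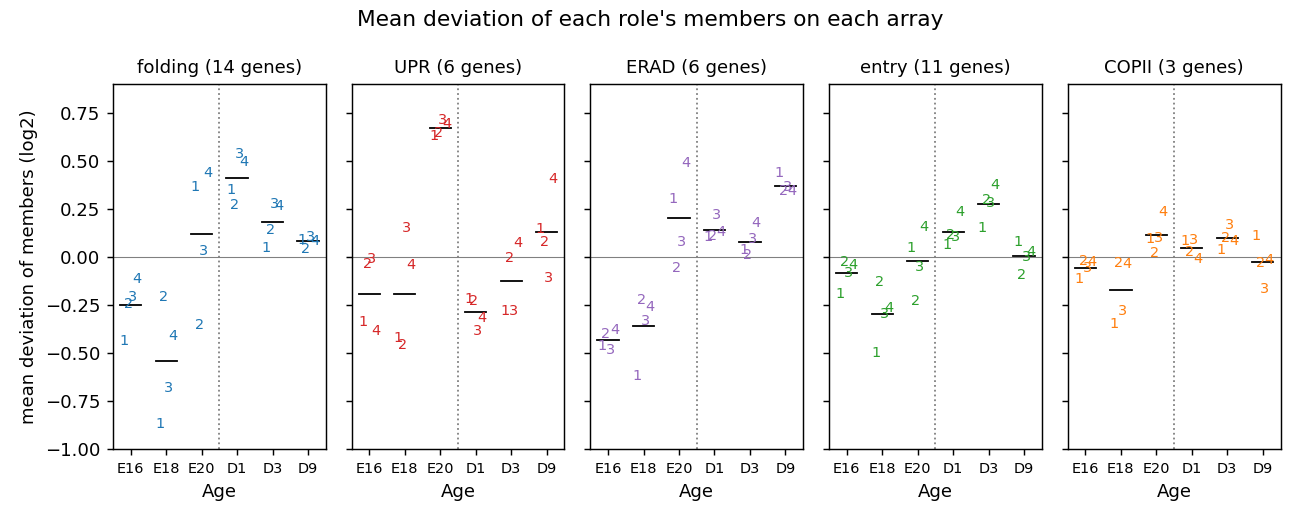
Mean over the members of each role of the log2 deviation from the gene's own mean over 24 arrays (y axis), for each array at the 6 ages; numerals are the replicate numbers, bars the age means, and the dotted line marks hatching. Folding genes spread most at E18 and E20 and least at D9, whereas the 4 E20 arrays lie close together for the UPR genes.

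Other genes of the same pathways were read from 6 lists. Their counts stand against 2.40% of named genes higher and 1.83% lower at E20 minus E18, 11.0% and 6.03% at D3 minus E18, and 5.42% and 4.11% in hatchlings minus embryos. Of 23 measured further folding and glycoprotein quality control genes of 33 listed, 3 were higher and 1 lower at E20 than at E18. ERO1B, an ER oxidase, UGGT1, the folding sensor of glycoproteins, and DNAJC10, a disulfide reductase, were the 3 higher, with log2 ratios of 1.48, 1.35 and 0.85, and STC2, a secreted glycoprotein, was the lower, at -1.45. UGGT1 was lower again at D1 (-0.87), as XBP1 was. At D3 against E18, DNAJC10 had a ratio of 1.28 and STC2 one of -2.17, and in hatchlings minus embryos these were 0.87 and -1.37.

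Of 14 further entry genes of 21 listed, 6 were higher and 1 lower at D3 than at E18. SRPRA, the receptor of the signal recognition particle, had a ratio of 1.23 at D3 and of 0.99 in hatchlings minus embryos, and TRAM2, a translocon-associated protein, had ratios of -1.57 and -1.44. Of 22 oligosaccharyltransferase and N-glycan genes of 24 listed, 5 were higher and 1 lower at D3. ALG8, a glucosyltransferase, had a ratio of 0.98, and TUSC3, an oligosaccharyltransferase subunit, one of -0.99, and 0 of the 22 were called in hatchlings minus embryos. Of 34 further coat and ER to Golgi genes of 41 listed, 9 were higher and 1 lower at D3 than at E18. SAR1B, the GTPase that starts COPII coat assembly, had a ratio of 1.80 at D3 and 1.29 in hatchlings minus embryos, and TMED7, a cargo receptor, had 1.52 and 0.92.

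Of 21 further ERAD genes of 27 listed, 3 were higher and 1 lower at D3 than at E18, against the 11.0% and 6.03% of named genes above. EDEM2 had a ratio of 1.20 and VCP, the ATPase that extracts ubiquitinated protein, one of 1.02, and 1 gene was lower in hatchlings, the mannosidase MAN1B1 (-0.86). Of 23 further UPR and integrated stress response genes of 34 listed, 0 were called between E18 and E20. In hatchlings minus embryos 3 were higher and 2 lower, and in D3 minus E18, 5 and 4. PSAT1, a serine synthesis enzyme, had ratios of 1.43 and 1.54, and DNAJC12, a J-domain protein of the cytosol, had -2.80 and -3.89. Between E18 and E20, 0 genes were called in the N-glycan, coat and further ERAD lists as well. These counts depend on the limit on the ratio. In the coat list 33 of 34 ratios were above 0 (median 0.36), and 15 genes, all higher at E20, passed on adjusted p alone. In the further ERAD list these were 16 of 21 (median 0.36) and 8. In the N-glycan list they were 14 of 22 (median 0.13) and 2, and in the further UPR list 14 of 23 (median 0.02) and 3. In the further entry list 1 was called over that step, SRPRA, which was higher at E20 (0.88).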

How the data were processed

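Liver RNA from 24 male broilers, 4 at each of 6 ages, was hybridised to 1 array each, and per the study's methods each hybridization day held 1 replicate of every age. The log2 values were deposited by the authors after RMA (background correction, quantile normalisation and summary of 38535 probe sets, with limma 3.30.13 named in the processing notes). Precision rests on the 4 arrays of each age and on a spread pooled over the 6 ages. The 96 control probe sets were left out. Symbols came from the platform annotation, in which 27168 probe sets had 1 symbol and could be named, 177 carried several symbols, and 11094 were without one. Matching through Entrez IDs to a RefSeq gene table changed no symbol.

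Each probe set was fitted with limma 3.58.1 in R 4.3.3 with 1 mean per age over all 24 arrays (18 residual degrees of freedom) and moderated by eBayes, and 8 contrasts of later minus earlier age and an F test over the 6 ages were adjusted over 38439 probe sets by the Benjamini-Hochberg method. Groups came from the sample titles. The background was 1 probe set for each of 13009 named genes, chosen as for the members. The fit was tested on simulated data. All 40 members found are named, and values on every array are given for the 3 members of each role with the smallest F test p and for HSPA5, XBP1 and ATF4. Of the other lists, the 2 called genes with the largest ratios in hatchlings minus embryos and in D3 minus E18 are named, while CHAC1, PDIA4 and the genes given for E20 were chosen after their values were seen. The members and lists were chosen with earlier results of these data known. The replicate numbers were taken to be the hybridization days, which the sample titles do not state. Deviations from the age means correlated at 0.071 on average within a replicate number (60 pairs), from 0.00363 for number 1 to 0.175 for number 4. Between replicate numbers they correlated at -0.0234 (180 pairs). Alternatives were a replicate block, cyclic loess, array weights, a trended and robust eBayes, a filter on probe sets under the 25th percentile, a gene's most variable probe set or an average over its probe sets, no limit on the ratio, a fit of the compared ages alone, and arrays left out. Figures were drawn with matplotlib 3.10.9.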

Additional observations from a re-analysis of the deposited data

Results flagged for a closer look

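Among 96 groups of 4 arrays (16 members at 6 ages), 3 held an array far from the others by Dixon's limit for 4 values on the gap relative to the range. Chance alone sets apart about 1 group in 20. ERN1 read 7.67 on E18 replicate 1, where the nearest array was at 8.24 and the farthest at 8.31. ERN1 also read 8.80 on E20 replicate 2, against 9.50 to 9.63 on the others. Its E20 call held without either array. SPCS3 read 11.65 on D3 replicate 1, with the others between 11.79 and 11.80, a gap that is small beside the spread of the gene at other ages.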

How the results depend on the processing

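Apart from dropping the limit on the ratio, 33 alternatives were run, 24 of them leaving out 1 array. They are summed up here for the 27 called ratios of the 16 members chosen by F test or named beforehand. None of the 27 changed sign, and 18 of them passed under every alternative. The other 9 fell short of a limit under 1 to 3 alternatives (DERL2, ERN1, SEC23B and SEC24D most often when a gene's probe sets were averaged). The called ratios of CHAC1, PDIA4, HYOU1, CRELD2, SDF2L1, DNAJB9 and EDEM3 are not among the 27. Each of these genes lost a call under at least 1 alternative, so the summary does not describe them. With the replicate block (the replicate number, taken as the hybridization day), the counts of members called were as in the unblocked fit except for E18 minus E16, where 1 member (DNAJB11) was called instead of 0. The same count of 1 was found with trended and robust eBayes, with the filter on low probe sets, with a gene's probe sets averaged and without both arrays that stood apart. Without a limit on the ratio the counts were 19 at E20 minus E18, 12 at D1 minus E20, 4 at D3 minus D1, 3 at D9 minus D3, 25 in hatchlings minus embryos, 24 at D3 minus E18 and 18 at D9 minus E16, a setting that by its construction can only add calls. With only the arrays compared, 6 members were called at E20 minus E18 instead of 10. Cyclic loess gave 8 at D9 minus E16 instead of 5. The cause of these 2 shifts was not tested. Leaving out 1 array at a time gave 0 to 1 members at E18 minus E16, 8 to 13 at E20 minus E18, 3 to 7 at D1 minus E20, 1 to 2 at D3 minus D1, 0 at D9 minus D3, 4 to 6 in hatchlings minus embryos, 12 to 16 at D3 minus E18, 5 to 8 at D9 minus E16, and 19 to 27 over the 6 ages. The count at D3 minus D1 fell to 1 without D1 replicate 3, D1 replicate 4 or D3 replicate 2. It was 3 with a gene's most variable probe set, where HSP90B1 was added. Signal over background limits only the dim second probe sets, since every member's chosen probe set lay above the background level on all arrays.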
